A study of Mus musculus with 29 samples.

Results

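Ribosome biogenesis factors are the proteins that transcribe, modify, cut and fold ribosomal RNA and assemble it with ribosomal proteins. Here 40 genes of this machinery were followed in mouse blood stem and progenitor cells. The genes were chosen by symbol for their known role and were set against the ribosomal proteins themselves. Of the 40, 39 had a row among the 23366 genes counted, and for Noc2l only the promoter was analysed here. All 39 passed the filter on low counts in every fit.

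RNA was measured in 29 libraries from lineage-negative, cKit-positive, Sca1-positive bone marrow cells, sorted into those with and those without the surface receptor CD150. The mice were C57BL/6, 8 to 12 weeks old, with males and females pooled per the labels, and carried whole-animal alleles of Mysm1, which encodes a histone H2A deubiquitinase, and of Puma (gene symbol Bbc3), which encodes a pro-apoptotic target of p53. The series asked how far the consequences of Mysm1 loss depend on Puma. CD150-negative cells were measured in 3 libraries each of wild type (named D), Puma-/- (C), Mysm1-/-Puma+/- (A) and Mysm1-/-Puma-/- (B). CD150-positive cells were measured in 4 wild-type libraries (3 named D and 1 named W), 2 Puma-/- (C), 4 Mysm1-/-Puma+/- (A) and 7 Mysm1-/-Puma-/- libraries (4 named B and 3 named P). Mysm1-/-Puma+/- mice stood in for Mysm1-/- mice because the submitters described the same phenotype, so the loss of 1 Puma allele is part of that group. No label ties the libraries to separate animals, and the p-values therefore cover the spread from library to library, which may be technical. In sorted cells measured in bulk, fewer cells of a type and less RNA per cell cannot be told apart.

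As background, ribosome production starts in the nucleolus, where RNA polymerase I copies the ribosomal RNA genes into a long precursor. Small nucleolar RNA-protein particles of the box C/D class methylate that precursor and those of the box H/ACA class turn uridine into pseudouridine, while processing factors cut and fold it into the small and large subunits. MYC proteins are known activators of many of these genes, and blood stem cells are known for low protein synthesis and for sensitivity to defects of ribosome assembly.

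Libraries held 28066870 to 54339749 counted reads in CD150-negative cells and 12304713 to 35034318 in CD150-positive cells. Slamf1, the gene of CD150, lay between 0.218 and 2.30 CPM (read counts scaled to library size) in the CD150-negative libraries and between 10.97 and 30.4 CPM in the CD150-positive ones. Kit lay between 449 and 812 CPM in all libraries. Of erythroid genes, Car2, a carbonic anhydrase, lay between 257 and 845 CPM. Ly6a, which encodes Sca1, was low at 6.35 to 26.2 CPM. Mysm1 reads were present in every library and overlapped between genotypes in CD150-negative cells (67.1 to 122 CPM in Mysm1-/- and 85.3 to 108 CPM in the other libraries), and Bbc3 reads lay at 5.32 to 6.00 CPM in CD150-negative Puma-/- and 4.23 to 7.78 CPM in wild-type libraries. Bbc3 lay between 20.7 and 45.0 CPM in the CD150-negative Mysm1-/-Puma+/- libraries and between 22.0 and 29.8 CPM in the libraries labelled Mysm1-/-Puma-/-, where it was 1.95 above wild type on the log2 scale (edgeR adjusted p = 0.000747). By group, mean Mysm1 in CD150-negative cells was 103 CPM in wild type, 91.5 in Puma-/-, 98.8 in Mysm1-/-Puma+/- and 72.6 in Mysm1-/-Puma-/-. The last lay below wild type without overlap (-0.57, edgeR adjusted p = 0.0557). In CD150-positive cells it was 121 CPM in wild type, 101 in Mysm1-/-Puma+/- and 80.5 in Mysm1-/-Puma-/-. Mysm1 counts thus followed the labels in part, and Bbc3 counts in CD150-negative cells did not. Whole-gene counts did not check the deletions, and genotypes are given as labelled throughout. Reads on the odorant, pheromone and trace amine receptor genes, which blood cells are not known to express, were taken as background and were highest in CD150-positive C2-5, D2 and B5 and in CD150-negative B1 (8902, 8116, 7425 and 5671 CPM).

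The 39 genes were expressed in all 29 libraries, over a wide range of levels. Per kilobase of exonic length, the mean level ran from 6.88 CPM for Rrp1b, a nucleolar factor of the large subunit, to 413 CPM for Npm1, a nucleolar chaperone, with a median of 29.7. After Npm1 came Ncl (nucleolin, 406), the box C/D proteins Nop58 (189), Fbl (172) and Nop56 (135), and the pseudouridine synthase Dkc1 (79.1). Next to Rrp1b at the low end were Noc4l of the small subunit pathway (9.12) and Polr1e of RNA polymerase I (10.3). Between the 8 groups the members moved little: the highest group mean divided by the lowest ran from 1.08 for Gnl2 to 1.76 for Gar1, with a median of 1.33. On the log2 scale the SD of libraries within groups had a median of 0.18 over the members. The SD of the 8 group means had a median of 0.15. Averaging alone makes group means vary less than single libraries, so setting these SDs side by side does not show whether the groups differed. CD150-negative Mysm1-/-Puma-/- cells had the lowest of the 8 group means for 24 of the 39 members. The share over all genes was not computed, and the mean of the ribosomal proteins was also lowest in these cells (8.54 log2 CPM).

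**Figure D1:**
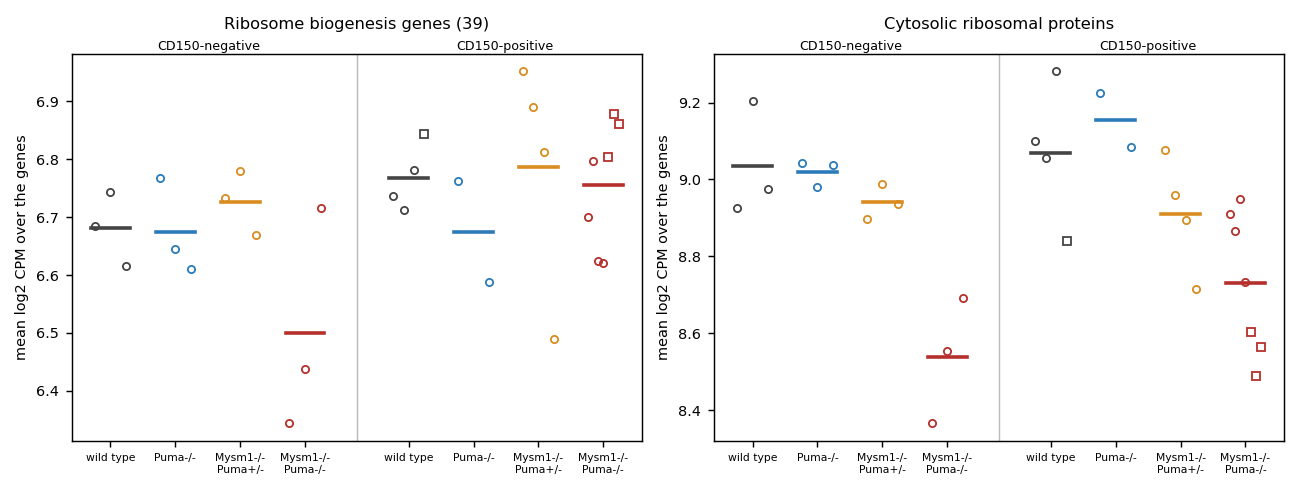
Mean log2 CPM of the 39 ribosome biogenesis genes and of the ribosomal proteins in each of the 29 libraries, by group; squares mark the libraries named P or W, circles the others, and lines the group means. The CD150-negative Mysm1-/-Puma-/- libraries B1 and B3 lie lowest for the biogenesis genes, at 6.34 and 6.44, while B5 lies at 6.72 within the range of the other groups.

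The members tended to vary together from library to library. After subtraction of each group's mean, the correlation between 2 members over the 29 libraries had a median of 0.41 over 741 pairs of genes, against 0.55 over 3003 pairs of ribosomal proteins and 0.22 over 4186 pairs of 92 other ribosome biogenesis genes. These values describe shared variation between libraries, which includes depth and composition. No such value was computed over all genes, so the members are not shown to vary together more than genes in general. Within groups, single libraries carried much of it: CD150-negative B1 had the lowest level of its group for 31 of 39 members and B5 the highest for 37, CD150-positive A4 was the lowest of its group for 35, and CD150-positive C2-5 was the lower of its pair for 35.

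Promoter sequences were examined because these genes varied together, and are shown for 4 members that hold a motif searched: Gar1, the one member called in a genotype comparison, Nhp2 of the same particle, and Nop2 and Utp18, which hold both motifs before the start. The windows come from RefSeq (build GRCm38.p6) and run 5′ to 3′ over the 250 bases before the annotated start, on the minus strand for Gar1 (chr3:129831397-129831646) and Utp18 (chr11:93885767-93886016) and on the plus strand for Nhp2 (chr11:51619523-51619772) and Nop2 (chr6:125131633-125131882). Capitals mark CACGTG, the E-box bound by MYC and related factors, and CCGGAAG or its reverse complement CTTCCGG, a core of sites of ETS factors.
Gar1: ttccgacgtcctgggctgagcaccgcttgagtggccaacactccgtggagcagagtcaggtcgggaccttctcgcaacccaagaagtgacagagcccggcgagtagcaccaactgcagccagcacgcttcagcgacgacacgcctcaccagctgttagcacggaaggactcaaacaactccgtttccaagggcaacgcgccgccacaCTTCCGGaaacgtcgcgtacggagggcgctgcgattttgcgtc
Nhp2: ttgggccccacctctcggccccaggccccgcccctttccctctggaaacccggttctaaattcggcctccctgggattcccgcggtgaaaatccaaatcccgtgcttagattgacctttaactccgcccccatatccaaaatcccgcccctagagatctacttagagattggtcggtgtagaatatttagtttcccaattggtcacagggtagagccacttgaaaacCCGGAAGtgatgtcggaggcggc
Nop2: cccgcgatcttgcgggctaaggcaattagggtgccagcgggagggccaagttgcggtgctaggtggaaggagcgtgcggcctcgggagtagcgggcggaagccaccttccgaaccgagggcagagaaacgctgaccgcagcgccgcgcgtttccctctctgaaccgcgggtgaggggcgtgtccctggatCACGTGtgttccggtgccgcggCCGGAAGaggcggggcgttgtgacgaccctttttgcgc
Utp18: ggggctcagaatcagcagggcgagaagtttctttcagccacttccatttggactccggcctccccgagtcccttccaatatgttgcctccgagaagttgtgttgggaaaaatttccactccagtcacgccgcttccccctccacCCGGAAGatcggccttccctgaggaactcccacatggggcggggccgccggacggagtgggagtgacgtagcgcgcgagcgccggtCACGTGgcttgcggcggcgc
In Gar1 the ETS core began at position -43 and in Nhp2 at -23, counted from -1 for the base just before the start. Nop2 held the E-box at -60 and the ETS core at -38, and Utp18 held the E-box at -20. Tsr1 also held both, with the E-box after the start. Of the 40 members, 33 had a window in the table, which spans 300 bases and ends 50 bases after the start. CACGTG was found in 5 of the 33 (15.2%), in 7.24% of the 27025 promoters of the table and in 8.22% of the 16369 whose genes were counted here. CCGGAAG, on either strand, was found in 12 of the 33 (36.4%), in 9.12% of all promoters and in 11.8% of those of counted genes. The same core was held by 38.6% of 57 ribosomal protein promoters, 48.7% of 76 promoters of other biogenesis genes and 25.0% of 16 promoters of mitosis genes. The 2 motifs cannot overlap each other, and a match is a description of letters, not of binding.

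In 13 comparisons the members gave 507 tests. An adjusted p under 0.05 was reached in 2 (edgeR quasi-likelihood test, Benjamini-Hochberg adjustment over all genes tested), and an unadjusted p under 0.05 in 49. Depending on the comparison, 0% to 7.15% of all genes tested were called and 1.22% to 17.4% had an unadjusted p under 0.05. The called pairs were Gar1, lower in CD150-negative Mysm1-/-Puma-/- than in wild-type cells, and Tsr1, higher in CD150-positive than in CD150-negative wild-type cells. In the plots, Mysm1 loss stands for Mysm1-/-Puma+/- against wild type, Mysm1 and Puma loss for Mysm1-/-Puma-/- against wild type, Puma loss without Mysm1 for Mysm1-/-Puma-/- against Mysm1-/-Puma+/-, Mysm1 loss without Puma for Mysm1-/-Puma-/- against Puma-/-, and Puma loss for Puma-/- against wild type. The comparisons within a population share libraries, so their values are not independent of each other. All differences below are log2 fold changes from edgeR. Whether groups overlapped is given for single members as a description. The share of all genes whose groups did not overlap was not computed, so a lack of overlap is not shown to set members apart.

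**Figure D2:**
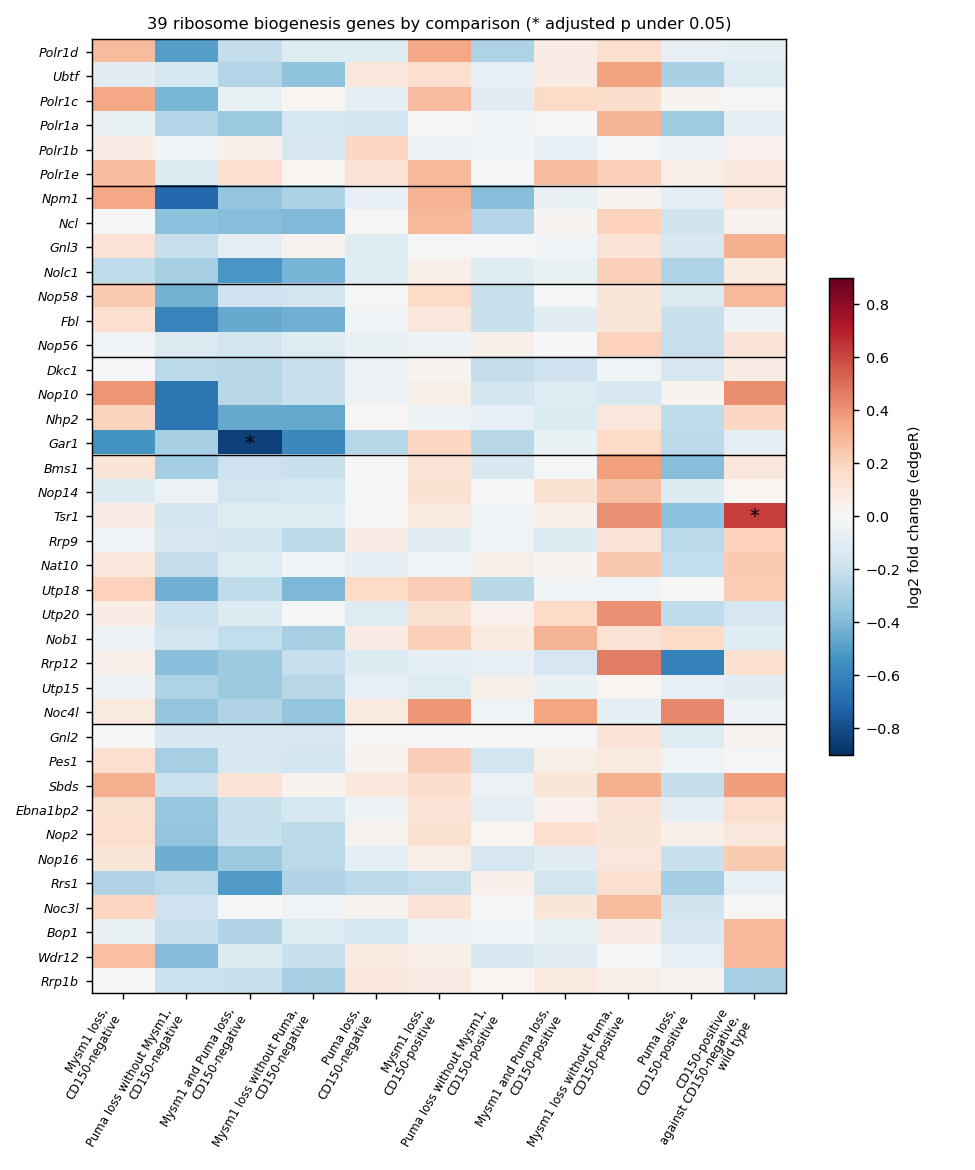
Log2 fold changes of the 39 ribosome biogenesis genes (vertical axis, ordered by role) in the 10 genotype comparisons and the comparison of wild-type populations (horizontal axis); colour gives the log2 fold change and an asterisk an edgeR adjusted p under 0.05. The asterisks fall on Gar1 in CD150-negative Mysm1-/-Puma-/- against wild type (-0.84) and on Tsr1 between the wild-type populations (0.62).

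Loss of Mysm1 and Puma together in CD150-negative cells gave the lowest group mean for 24 of the 39 members. Gar1, a core protein of the box H/ACA particles that guide pseudouridylation and are also part of telomerase, measured 16.1, 15.9 and 20.2 CPM in the Mysm1-/-Puma-/- libraries B1, B3 and B5, and 29.1, 28.6 and 32.3 CPM in the wild-type libraries D2, D3 and D4. All 3 mutant libraries lay below all 3 wild-type ones, with means of 17.4 ± 2.41 (SD, n = 3) and 30.0 ± 2.02 CPM. Gar1 (NCBIM37 chromosome 3, 129527830 to 129534314, minus strand, whose promoter is shown above) fell by 0.84 on the log2 scale (SE 0.20, 95% interval -1.29 to -0.39, edgeR adjusted p = 0.0284). It was the 1 member of 39 called, where 2.31% of all 21168 genes tested were called. The call rests on few libraries: the adjusted p was 0.154 without B1, 0.132 without B3, 0.0887 without D2, 0.104 without D3, 0.0917 without D4 and 0.0214 without B5, with a Gar1 difference between -0.98 and -0.76.

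By role, the members in that comparison had the following values. Of RNA polymerase I, Polr1a, its largest subunit, measured 135, 127 and 148 CPM in the mutant and 161, 163 and 172 CPM in wild-type libraries (-0.33, edgeR adjusted p = 0.218). The groups did not overlap for Polr1a, and the 6 genes of this role had a median of -0.14. Among nucleolar scaffolds and chaperones, Nolc1, a chaperone of small nucleolar particles, measured 127, 141 and 197 CPM in the mutant libraries and 212, 227 and 207 CPM in wild type (-0.52, adjusted p = 0.118). The B5 library alone came near the wild-type range for Nolc1, and without it the difference was -0.75 with an edgeR adjusted p of 0.00886, where 2.65% of all genes were called. Ncl, which binds the ribosomal RNA precursor, measured 2289, 2467 and 3179 CPM against 3335, 3397 and 3265 CPM (-0.38, adjusted p = 0.362). Fbl, the methyltransferase of the box C/D particles, had a difference of -0.45 and Nhp2 of the box H/ACA particles also one of -0.45, with adjusted p-values of 0.274 and 0.328. The 4 box H/ACA genes had a median of -0.35, the 11 small subunit factors one of -0.19 and the 11 large subunit factors one of -0.20. Rrs1 (large subunit) measured 35.1, 44.5 and 57.1 CPM against 65.8, 66.5 and 56.0 CPM, a difference of -0.51 with adjusted p = 0.190. Its B5 library lay inside the wild-type range.

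The ribosomal proteins differed more in the same libraries. Of 77 tested, 37 were called, all lower, with a median of -0.59, while the 39 biogenesis genes had a median of -0.20 and a range of -0.84 to 0.15. The median was 0.02 over all genes tested and -0.06 over the 8238 genes whose mean log2 CPM was 4 or more. Rpl36a (-1.36, adjusted p = 0.000122) and Rpl37a (-1.29, adjusted p = 5.77e-05) had the lowest values named here. Of 91 other ribosome biogenesis genes 1 was called, Lyar, a nucleolar protein (-0.75, adjusted p = 0.0267), and their median was -0.18. All 20 genes of a mitosis list were lower and called (median -0.99). Without B1, 29 ribosomal proteins were called, and over the 6 fits that leave out 1 library 23 to 41 were. The difference between the lists was not tested.

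**Figure D3:**
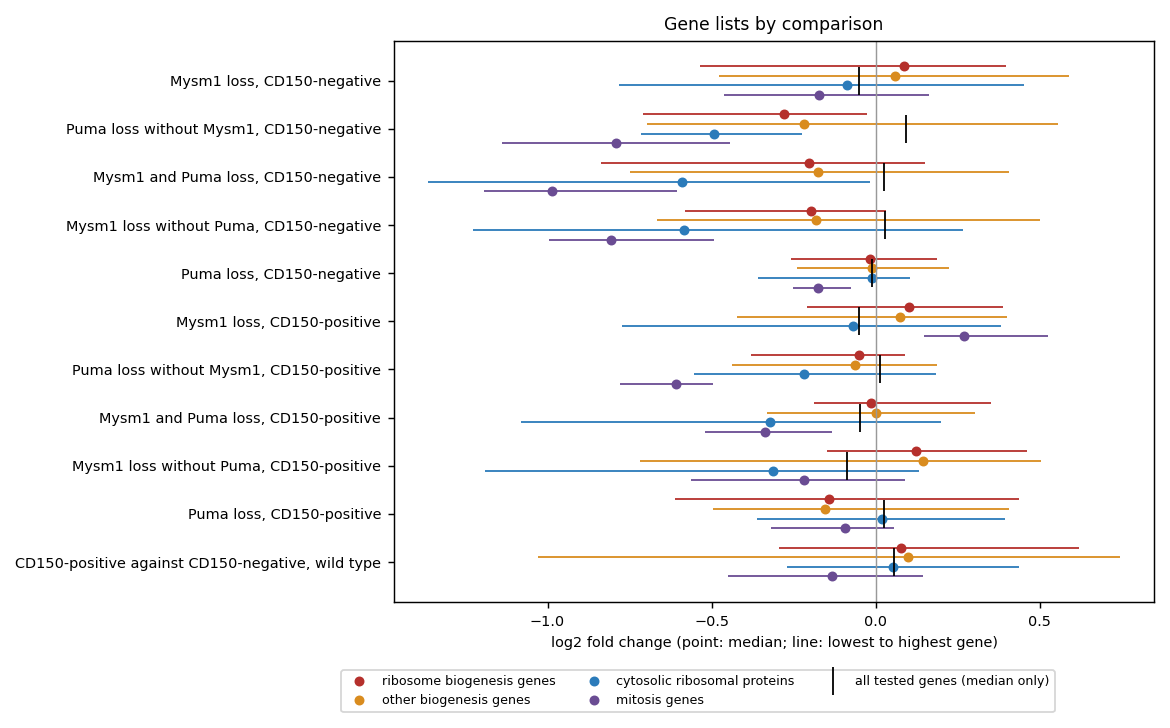
Median log2 fold change (point) and lowest to highest value (line) of the ribosome biogenesis genes, the other biogenesis genes, the ribosomal proteins and the mitosis genes in each comparison; the tick gives the median over all genes tested. In CD150-negative Mysm1-/-Puma-/- against wild-type cells the biogenesis genes lie at -0.20, the ribosomal proteins at -0.59 and the mitosis genes at -0.99.

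Puma loss on a Mysm1-/- background in CD150-negative cells gave lower fitted values for all 39 members, none of them called. The comparison set the B libraries against the Mysm1-/-Puma+/- libraries A1, A2 and A3, and 1.24% of all genes were called in it. The members ran from -0.71 to -0.03 with a median of -0.28, and 14 of 39 (35.9%) had an unadjusted p under 0.05, all lower. Among the 8238 well-expressed genes, those with a mean log2 CPM of 4 or more, 30.6% had one, 2004 lower and 515 higher, and 65.2% lay below 0. Npm1, the abundant nucleolar chaperone, measured 1093, 1241 and 1559 CPM in B and 2106, 2190 and 1725 CPM in A. The groups did not overlap for Npm1, and its difference was -0.71 (SE 0.17, 95% interval -1.10 to -0.31, edgeR adjusted p = 0.0519). Nop10, the smallest protein of the box H/ACA core, measured 28.6, 34.3 and 44.3 CPM in B and 64.9, 51.1 and 43.2 CPM in A, and B5 lay above A3 (-0.65, edgeR adjusted p = 0.0843). Nhp2, another of that core, measured 35.1, 43.3 and 60.8 CPM against 68.3, 75.4 and 64.6 CPM (-0.66, adjusted p = 0.0968). Without overlap, B5 again lay closest to the A group for Nhp2.

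Other roles gave smaller values in this comparison. Fbl measured 129, 147 and 203 CPM in B and 211, 264 and 214 CPM in A (-0.60, edgeR adjusted p = 0.0977). Polr1d, a subunit shared by RNA polymerases I and III, measured 72.2, 81.3 and 88.5 CPM against 101, 122 and 99.4 CPM (-0.50, adjusted p = 0.0954). Nop16, a nucleolar factor of the large subunit, measured 39.8, 37.5 and 40.96 CPM against 55.1, 48.9 and 47.2 CPM (-0.44, adjusted p = 0.0911). All 3 genes had groups that did not overlap, a trait whose share over all genes was not computed. Nop58 (-0.42), the small subunit factor Utp18 (-0.44), and Wdr12 (-0.39), which works with Pes1 and Bop1 on the large subunit, had adjusted p-values of 0.140, 0.194 and 0.169. Role medians were -0.47 for box H/ACA, -0.42 for box C/D, -0.33 for scaffolds, -0.24 for the large subunit and -0.21 for both RNA polymerase I and the small subunit.

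Which members were called depended on B5 and on the tool. Without B5, 6 of the 39 were called lower in that comparison (Npm1, Nhp2, Nop10, Fbl, Nop58 and Nolc1), and without A3 Npm1 and Nop10 were, where 4.36% and 5.01% of all genes were called. DESeq2 called 7, and limma voom with quality weights 8, where these tools called 1377 and 1724 of all genes. All 77 ribosomal proteins lay below 0 (median -0.49), 5 of them were called, and 68 had an unadjusted p under 0.05. The ribosomal protein count was 0 without A1, A2, B1 or B3, 19 without A3 and 37 without B5, 56 under DESeq2, 51 under voom and 0 in a fit of the compared groups alone. Of the mitosis genes 14 of 20 were called lower (median -0.79). That count was 0 without A2, 2 without A1 or B1, 6 without B3, 19 without A3 and 17 without B5. It was 20 under DESeq2 or voom and 0 with the compared groups alone, a fit that called 2 of all 19509 genes. A fit with library numbers as a block called 0 ribosomal proteins, 0 mitosis genes and 0 of all 21168 genes. The 91 other biogenesis genes had a median of -0.22 and none was called, with 26 at an unadjusted p under 0.05 in the lower direction and 1 in the higher.

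Other library measures were set beside the members in the 3 Mysm1-/-Puma-/- libraries of CD150-negative cells, and not all followed the members' order of B1, B3 and B5. Mean log2 CPM of the members was 6.34 in B1, 6.44 in B3 and 6.72 in B5, against 6.67 to 6.78 in the A libraries and 6.62 to 6.74 in wild type. The sum over 10 of 11 granulocyte and monocyte markers was 607, 1146 and 2030 CPM in B1, B3 and B5, 735 to 1385 CPM in A and 974 to 2105 CPM in wild type, with none of the 10 at 0 in any CD150-negative library. The mean log2 CPM of the mitosis genes was 5.71, 6.09 and 6.10 in B1, B3 and B5 and at least 6.42 in the other 9 CD150-negative libraries. Receptor background was 5671 CPM in B1 and 2848 and 3127 in B3 and B5. Erythroid markers summed to 417, 366 and 428 CPM in B1, B3 and B5. Their sums were 310 to 629 in A and 446 to 510 in wild type. Of the 9 tested, 8 lay below 0 against wild type (median -0.77, none called). Megakaryocyte markers summed to 114, 91.1 and 118 CPM in B1, B3 and B5. Their sums were 96.7 to 152 in A and 73.2 to 85.8 in wild type, with 7 of 9 above 0 against wild type (median 0.43, 1 called). Without B1, the median of the members was -0.18 against Mysm1-/-Puma+/- and -0.09 against wild type. With the receptor background as a covariate these medians were -0.20 and -0.17, Gar1 was at -0.83 against wild type (edgeR adjusted p = 0.0185), and 42 ribosomal proteins were called there (median -0.54). The part of the marker and mitosis measures in the members' values was not tested.

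Gene length (the exonic length in the count files) moved with the fold changes of all genes in these comparisons. In Puma loss without Mysm1, Spearman's rho between length and log2 fold change was 0.40 over the 8238 well-expressed genes and 0.22 over the 39 members. Members of over 1000 and up to 2000 bases had a median of -0.30 (n = 11), the same as all genes of that length, while the 7 members over 5000 bases had a median of -0.26 against 0.00 for all genes of that length. In Mysm1 and Puma loss the values for those lengths were -0.18 against -0.14 and -0.26 against 0.00, with rho at 0.22 over all genes and 0.02 over members. The ribosomal proteins are mostly short, and all genes of up to 1000 bases had a median of -0.52 in Puma loss without Mysm1 and of -0.29 in Mysm1 and Puma loss.

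**Figure D4:**
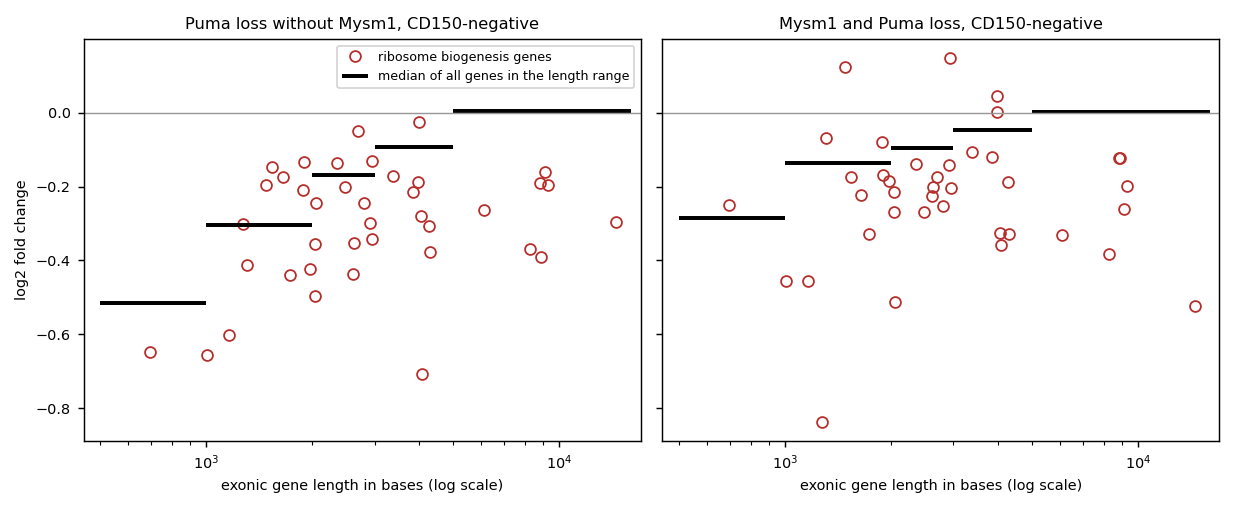
Log2 fold change of the 39 ribosome biogenesis genes (points) against exonic gene length in bases (log axis), with the medians of all well-expressed genes in each length range (lines), in 2 comparisons of CD150-negative cells. Members over 5000 bases lie at a median of -0.26 in both panels, where all genes of that length lie at 0.00.

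Mysm1 loss with 1 Puma allele kept called none of the 39 members in CD150-negative cells, where 0.869% of all genes were called. An unadjusted p under 0.05 was reached by 3 members (7.69%), against 9.54% of all genes tested. DESeq2 called none and limma voom called Npm1. The members had a median of 0.09 and ran from -0.54 to 0.40. Gar1 measured 16.4, 25.7 and 18.6 CPM in Mysm1-/-Puma+/- libraries, below all wild-type values (-0.54, SE 0.19, 95% interval -0.99 to -0.09, edgeR adjusted p = 0.315). Npm1, with its 2106, 2190 and 1725 CPM in these libraries, compared with 1616, 1775 and 1422 CPM in wild type, so that A3 lay within the wild-type range (0.35, adjusted p = 0.545). Nop10 was at 0.40 (adjusted p = 0.519) and Sbds, which releases an anti-association factor from the large subunit and is mutated in Shwachman-Diamond syndrome, at 0.32 (adjusted p = 0.518). The 95% intervals of all 39 members lay within 1 log2 unit of 0. Of 77 ribosomal proteins 3 were called lower, with a median of -0.09.

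Mysm1 loss on a Puma-/- background in CD150-negative cells called 0 of 39 members, where 1.35% of all genes were called, and 8 (20.5%) had an unadjusted p under 0.05, all lower. Among the 8238 well-expressed genes 19.2% had one, 1056 lower and 529 higher. DESeq2 and limma voom called none either. Gar1 measured 30.2, 23.8 and 21.7 CPM in the Puma-/- libraries C2, C3 and C5, all above the B libraries (-0.58, 95% interval -1.03 to -0.13, edgeR adjusted p = 0.227). Ubtf, which binds the ribosomal RNA gene promoter, measured 258, 269 and 296 CPM in B and 383, 337 and 310 CPM in C, also without overlap (-0.36, adjusted p = 0.308). Nolc1 was at -0.42 (adjusted p = 0.320) and Rrp1b at -0.30 (adjusted p = 0.364). Without B5 Nolc1 was called, at -0.65 with an edgeR adjusted p of 0.0318, where 1.55% of all genes were. The members had a median of -0.20, and 33 of 77 ribosomal proteins were called lower with a median of -0.58.

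Puma loss alone in CD150-negative cells gave 0 called members and 0% of all genes called. An unadjusted p under 0.05 was reached by 0 members and by 1.53% of all genes. DESeq2 and limma called none either. The members ran from -0.26 for Gar1 to 0.19 for Polr1b, the second largest subunit of RNA polymerase I, with a median of -0.02. Polr1a was at -0.17 and Rrs1 at -0.24, each with an edgeR adjusted p of 1. All 39 intervals lay within 1 log2 unit of 0, and the ribosomal proteins had a median of -0.01.

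**Figure D5:**
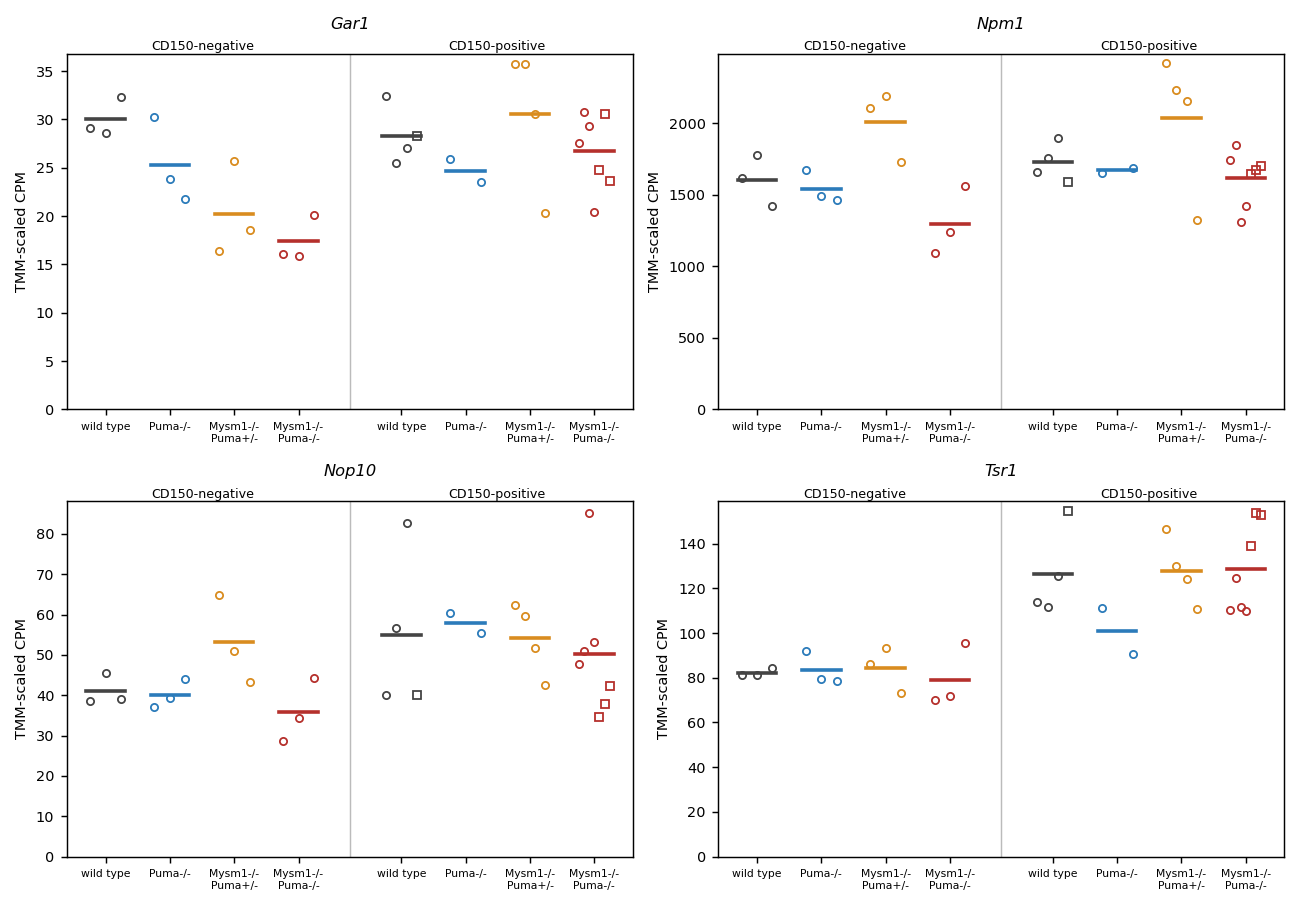
Levels of Gar1, Npm1, Nop10 and Tsr1 in CPM in each of the 29 libraries, by group, with group means as lines. Gar1 lies at 15.9 to 25.7 CPM in the 6 Mysm1-/- libraries of CD150-negative cells, and Tsr1 lies at 112 to 155 CPM in CD150-positive against 81.1 to 84.4 CPM in CD150-negative wild-type cells.

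In CD150-positive cells no member was called by edgeR, DESeq2 or limma in any of the 5 genotype comparisons. In each, 1 or 2 members (2.56% or 5.13%) had an unadjusted p under 0.05, where 1.22% to 9.75% of all genes had one. Mysm1 loss with 1 Puma allele kept gave members a median of 0.10, with 29 of 39 above 0 (74.4%), where 0.454% of all genes were called. Of the 8238 well-expressed genes 6112 (74.2%) also lay above 0, with a median of 0.14. Polr1d measured 109, 117, 101 and 86.9 CPM in libraries A1 to A4 and 88.1, 83.1, 87.0 and 83.3 CPM in wild type, with A4 inside the wild-type range (0.35, SE 0.14, edgeR adjusted p = 0.495). Noc4l was at 0.39, Polr1e at 0.29 and Polr1c, another subunit shared by RNA polymerases I and III, at 0.28, with adjusted p-values of 0.571, 0.638 and 0.644. Gar1 measured 35.8, 35.8, 30.5 and 20.3 CPM in these Mysm1-/-Puma+/- libraries and 32.5, 25.5, 27.0 and 28.3 CPM in wild type, and the groups overlapped. Library A4 was low for most members, with a member mean of 6.49 log2 CPM against 6.81 to 6.95 in A1 to A3, and its mean over mitosis genes was 6.26 against 6.88 to 7.42. The sum over its 9 megakaryocyte markers was 1571 CPM, against 605 to 1152 CPM in the other 3, and the part of these measures was not tested.

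Puma loss without Mysm1 in CD150-positive cells gave members a median of -0.05, with 0% of all genes called. Npm1 measured 2417, 2233, 2152 and 1324 CPM in A1 to A4, and its lowest, median and highest values were 1306, 1673 and 1850 CPM in the 7 Mysm1-/-Puma-/- libraries. A4 alone of the A group lay inside that range, and the difference was -0.38 (95% interval -0.77 to 0.01, edgeR adjusted p = 1). Polr1d was at -0.28, Utp18 at -0.25 and Dkc1 at -0.21, each with adjusted p = 1. The ribosomal proteins had a median of -0.22, and none was called.

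Mysm1 and Puma loss together in CD150-positive cells gave members a median of -0.01 and a range of -0.19 to 0.35, with 0.291% of all genes called. Noc4l was at 0.35, Polr1e at 0.28, Nob1, the nuclease that finishes the small subunit RNA, at 0.30 and Utp20 at 0.18, with edgeR adjusted p-values of 0.663, 0.717, 0.722 and 0.798. All 39 intervals lay within 1 log2 unit of 0. Ribosomal proteins had a median of -0.32 with 2 called lower, Rpl29 (-0.70) and Rpl36a (-1.08). The double mutant libraries named P held higher member means (6.80 to 6.88 log2 CPM, 3 libraries) than those named B (6.62 to 6.80, 4 libraries) and lower ribosomal protein means (8.49 to 8.60 against 8.73 to 8.95). What the names P and W stand for is not given in the sources used here.

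Mysm1 loss on a Puma-/- background in CD150-positive cells gave members a median of 0.12, with 33 of 39 above 0, where 0.115% of all genes were called. Of the 8238 well-expressed genes 6147 lay above 0, with a median of 0.16. Utp20 of the small subunit was at 0.41 (edgeR adjusted p = 0.494), Tsr1 at 0.41 (adjusted p = 0.511), Rrp12 at 0.46 (adjusted p = 0.532) and Ubtf at 0.36 (adjusted p = 0.551). The Puma-/- arm held 2 libraries, of which C2-5 had the higher receptor background and was the lower for 35 members, and the median was 0.02 without it and 0.31 without C1-4. Puma loss alone gave a median of -0.14, with 0% of all genes called, and well-expressed genes had a median of -0.10. The members' median was -0.04 without C2-5 and -0.28 without C1-4. Rrp12, which takes part in export of pre-ribosomal particles, measured 52.7 and 39.5 CPM in C1-4 and C2-5 and 63.0, 63.5, 61.9 and 86.3 CPM in wild type. The groups did not overlap for Rrp12, and the difference was -0.61 (95% interval -1.17 to -0.05, edgeR adjusted p = 1.00), with -0.38 without C2-5 and -0.90 without C1-4. Noc4l was at 0.44, Tsr1 at -0.37 and Polr1a at -0.32 in the same comparison, with adjusted p-values of 1.00.

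Between the wild-type populations, Tsr1 rose from CD150-negative to CD150-positive cells. TSR1 is a GTPase-like factor that takes part in maturation of the small subunit. The gene measured 114, 112, 125 and 155 CPM in CD150-positive libraries D1, D2, D3-4 and W1, and 81.4, 81.1 and 84.4 CPM in CD150-negative libraries. Every CD150-positive library lay above every CD150-negative one, with means of 126 ± 19.9 (SD, n = 4) and 82.3 ± 1.85 CPM (n = 3). The log2 difference was 0.62 (SE 0.15, 95% interval 0.31 to 0.93, edgeR adjusted p = 0.00820). Tsr1 was the 1 member of 39 called, where 7.15% of all genes were called. It was called in each fit that left out 1 library (adjusted p 0.00960 to 0.0429), with W1 the library that moved it most (0.51 without it), and not without the P and W libraries together (0.46, adjusted p = 0.0906).

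Tsr1 lies on NCBIM37 chromosome 11, 74711573 to 74722844, plus strand, and shares 1240 of its 3837 exonic bases with Srr on the opposite strand. The strand setting of the counting is not given in the sources used here, so reads of the pair cannot be told apart in that stretch. Srr measured 11.6 ± 2.56 CPM in CD150-positive and 8.49 ± 1.99 CPM in CD150-negative wild-type cells (0.44, edgeR adjusted p = 0.293). Of the 39 members 12 share exonic bases with a gene on the opposite strand, the others by 5 to 185 bases, and 6 members hold 17 genes of small nucleolar RNAs inside their bounds.

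The other members of the wild-type comparison were not called by edgeR; the 39 together ran from -0.30 to 0.62 with a median of 0.08, against 0.05 over all genes tested. Sbds was at 0.38 (edgeR adjusted p = 0.0947), Gnl3, also known as nucleostemin, at 0.32 (adjusted p = 0.113), and the partners Wdr12 and Bop1 each at 0.29 (adjusted p = 0.217 and 0.265). Sbds and Gnl3 were called under limma voom, limma-trend and the fit with the receptor background as covariate (edgeR adjusted p 0.0166 and 0.0424 in the last). Among 91 other biogenesis genes 5 were called higher and 3 lower, among them Mak16 (0.74), Exosc9 of the RNA exosome (0.70) and Nol12 (-1.03). No ribosomal protein was called, and their median was 0.05. Of the MYC network, Mycn was higher in CD150-positive cells, at 88.9 ± 15.2 against 43.4 ± 5.63 CPM (1.03), and Myc was at -0.38 with an edgeR adjusted p of 0.0734. In the CD150-negative comparison of Mysm1-/-Puma-/- with wild type, Myc was at -0.24 and Mycn at 0.13. In CD150-negative Puma loss without Mysm1, Myc was at 0.04 and Mycn at 0.72 (edgeR adjusted p = 0.950 and 0.0640). In CD150-negative Mysm1 loss, Myc was at -0.28 and Mycn at -0.59 (edgeR adjusted p = 0.645 and 0.225). No MYC network gene of 10 was called in any genotype comparison, and their part in the members' values was not tested.

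Whether an effect differed between the populations was tested for each gene in 1 fit over all 29 libraries. For the Mysm1 effect 0 members were called, where 0.00916% of all genes were, and for the Puma effect without Mysm1 0 members, where 0% of all genes were. Each test had 1 member (2.56%) at an unadjusted p under 0.05, where 3.67% and 2.12% of all genes had one. DESeq2 and limma called no member in either test. Gar1 had the smallest p among members for the Mysm1 effect, with a difference of 0.68 (95% interval 0.13 to 1.23, edgeR adjusted p = 1.00), the CD150-positive effect being the higher. Nhp2 had the smallest for the Puma effect, at 0.56 (95% interval 0.10 to 1.02, adjusted p = 1.00), followed by Nop2, a methyltransferase of the large subunit RNA, at 0.34. The Puma effect was fitted higher in CD150-positive cells for 38 of 39 members, with a median of 0.18 (well-expressed genes 0.03), and for 72 of 77 ribosomal proteins, with a median of 0.24.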

How the data were processed

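Read counts, as whole numbers by gene symbol, were deposited for each library, with a CPM matrix of 12578 genes that was used only as an alternative. Reads were made from ribosomal-RNA-depleted total RNA with a stranded low-input kit, per the labels' protocols. Trimmomatic 0.33, TopHat2 2.0.9, Bowtie 1.0.0, featureCounts, edgeR and build mm9 are named, per the submitters' processing notes. Neither the counting's strand setting nor its annotation is given in the sources used here.

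Groups came from the labels' genotypes. Counts were scaled by TMM and tested with edgeR 4.0.16 (quasi-likelihood, filterByExpr, Benjamini-Hochberg over all genes, R 4.3.3) over all groups of a population: 21168 genes in 12 CD150-negative and 20944 in 17 CD150-positive libraries. Population contrasts used 21830 genes in 29 libraries. CPM levels are on 1 TMM scale over 29 libraries. The scripts were tested on simulated data. Alternatives were DESeq2 1.42.0, limma 3.58.1 (voom; trend on log2(CPM + 1)), RLE size factors, no filter, compared groups alone, a receptor background covariate, replicate blocks and left-out libraries. Members and lists were chosen with earlier results of these data known. Every member could be named: in each comparison those called, otherwise the 4 with the smallest p; of other genes the targeted ones, Myc, Mycn and up to 4 called per list. Srr and the members with unadjusted p under 0.05 given by role were added after their values were seen.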

Additional observations from a re-analysis of the deposited data

Results flagged for a closer look

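In groups of 4 to 10 libraries, a member's highest or lowest library stood apart from the rest of its group (Dixon's ratio above the 95% critical value) in 10 of 120 combinations of member and group. Chance gives about 1 in 20, or 6.0 of 120. All groups of this size are of CD150-positive cells. In the Mysm1-/-Puma+/- library A4, Rrp1b was low at 40.4 CPM (next library 62.4) and Gnl3 was low at 127 CPM (next 157). In the Mysm1-/-Puma-/- library B5, Nop2 was high at 118 CPM (next 92.2), Nop10 at 85.3 CPM (next 53.3), Noc4l at 28.1 CPM (next 21.2) and Nob1 at 42.4 CPM (next 31.4), while Sbds was low at 61.0 CPM (next 77.1). B5 also had a receptor background of 7425 CPM, the highest of its group, and its part in these values was not tested. In the wild-type library W1, Bop1 was high at 59.99 CPM (next 44.6) and Rrp12 at 86.3 CPM (next 63.5). In the wild-type library D1, Wdr12 was low at 99.4 CPM (next 131).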

How the results depend on the processing

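Within a comparison, no member was called in opposite directions by different settings. Small medians did change sign. Over the alternatives, the members' median reached -0.05 in CD150-positive Mysm1 loss (main fit 0.10). It reached 0.03 in CD150-positive Puma loss without Mysm1 (main fit -0.05) and -0.00059 between the wild-type populations (main fit 0.08). With 1 library left out, it reached 0.06 in CD150-negative Puma loss (main fit -0.02) and in CD150-positive Mysm1 and Puma loss (main fit -0.01). Counts of called members moved as follows. Mysm1 loss in CD150-negative cells had 1 under voom (Npm1, 0.43) and 0 otherwise. Puma loss without Mysm1 in CD150-negative cells had 1 under RLE size factors (Npm1), 7 under DESeq2 and 8 under voom, all lower. Mysm1 and Puma loss in CD150-negative cells had 2 (Gar1 and Nolc1) under DESeq2, voom and limma-trend, and 0 under the replicate block or without the libraries of high receptor background, an alternative chosen after seeing the data. The wild-type populations had 4 under voom, 3 under limma-trend and 3 with the background covariate, and 0 without the P and W libraries. Leaving out 1 library gave 0 to 6 members for Puma loss without Mysm1, 0 to 3 for Mysm1 and Puma loss and 0 to 1 for Mysm1 loss without Puma in CD150-negative cells, 1 for the wild-type populations, and 0 in all other comparisons. Gar1 had adjusted p-values from 0.00271 (DESeq2) to 0.588 (replicate block, -0.60) over the alternatives. The cause of these changes was not tested.

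Whether library numbers pair the samples is not given in the labels, and the correlations did not settle it. Same-numbered CD150-negative libraries correlated at -0.48 to 0.32, with 4 of 11 pairs over 0.1, and 2 of 11 libraries correlated best with their own number. The range was -0.05 to 0.46 in CD150-positive cells (3 of 6 over 0.1) and -0.19 to 0.64 between populations for libraries of the same name (4 of 7). The values between populations were highest for A2 (0.64) and A3 (0.59) and lowest for B5 (-0.19). The main fit over both populations treated libraries of the same name as independent. With the replicate block 0 members were called in CD150-negative Mysm1 and Puma loss, 93 of all genes were called in place of 490, and 6 ribosomal proteins in place of 37. In CD150-negative Puma loss without Mysm1 the block gave 0 genes in place of 263. In CD150-positive cells the block gave 904 genes in place of 95 for Mysm1 loss and 308 in place of 61 for Mysm1 and Puma loss, with 0 members in both. No paired analysis was possible for the comparisons with CD150-positive Puma-/- cells because their libraries carry compound numbers. RLE scaling moved the median of all genes by at most 0.09. Intervals of members had a median SE of 0.15 in CD150-negative cells, and differences well above that size went uncalled at this number of libraries. In Puma loss without Mysm1 in these cells, Npm1 at -0.71 was not called (edgeR adjusted p = 0.0519). A member that was not called is therefore not shown to be unchanged.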
